A study of Mus musculus with 24 samples.

Results

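miR-144 and miR-451a are the microRNAs of red blood cells, and their 3 mature products, mmu-miR-451a, mmu-miR-144-3p and mmu-miR-144-5p, were followed here through 24 mouse liver libraries as a gauge of the blood left in each one. The members were picked by name, 3 of the 1908 mature miRNA names in the count table, and all 3 passed the filter on low counts that 421 names passed. C57Bl/6J mice fed a high fat diet for 11 weeks received a locked nucleic acid oligonucleotide into a vein on 3 days, at 3.3 mg/kg, and their livers were taken 7 days later. In the 8 AM132 samples the oligonucleotide was a 16-mer complementary to miR-132. In the 8 AM608 samples it was a 15-mer complementary to miR-608, a miRNA of primates that served as control. The 8 RCD samples came from age-matched lean mice on chow for 11 weeks, for which no oligonucleotide, dose or injection is listed. No group of obese mice without an oligonucleotide was among the 24 libraries, so diet and injection cannot be told apart between obese and RCD liver, and a difference between AM132 and AM608 can come from either oligonucleotide. Whether the livers were flushed of blood before freezing is not given in the sources used here.

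Red cells arise from erythroid precursors in which the transcription factor GATA1 switches on the gene that carries both hairpins. miR-144 is cut in the usual way by Drosha and Dicer into a 5p and a 3p arm, whereas the stem of miR-451a is too short for Dicer and is cut by Argonaute 2. miR-451a protects erythroid cells from oxidative stress and stays at very high levels in mature red cells, which have no nucleus, and for that reason it is widely read as a sign of blood in tissue and plasma samples. The adult mouse liver makes few red cells of its own but is rich in blood. In whole liver, a larger number of red cells and more of the miRNA per cell cannot be told apart.

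The mature sequences of the 3 members, from RefSeq on GRCm38.p6, are shown first because the counts below are counts of reads assigned to them. Capitals mark the seed, bases 2 to 8, and no 2 members share it.
miR-451a: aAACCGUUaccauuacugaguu
miR-144-3p: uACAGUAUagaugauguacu
miR-144-5p: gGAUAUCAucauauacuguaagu
Among 1679 mature mouse names searched in the same table, miR-101a-3p was the 1 other that shared bases 2 to 7 with a member, in capitals here, and it differed from miR-144-3p at base 8.
miR-101a-3p: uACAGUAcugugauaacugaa
miR-101a-3p, which is abundant in hepatocytes, stood at 2418 ± 288 CPM in RCD (mean ± SD, n = 8), far above miR-144-3p. CPM, the level used throughout, is a miRNA's count per 1000000 counts in tested miRNAs, with library sizes corrected by trimmed mean of M values (TMM).

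Both hairpins lie on the plus strand of chromosome 11 (GRCm38; the build behind the counts is not given in the sources used here). Mir144 spans 78073005 to 78073070 and Mir451a spans 78073170 to 78073241, with 99 bases between them. Both are intergenic miRNA genes in GENCODE M21, and 134 bases separate Mir451a from the 3′ end of Eral1, a protein-coding gene on the minus strand. Mir451b is annotated on the opposite strand at the coordinates of Mir451a, and miR-451b was listed at 0 in all 24 libraries. The hairpins are printed with the mature parts in capitals to show how they differ.
Mir144: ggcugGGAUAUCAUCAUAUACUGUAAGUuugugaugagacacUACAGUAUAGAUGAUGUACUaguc
Mir451a: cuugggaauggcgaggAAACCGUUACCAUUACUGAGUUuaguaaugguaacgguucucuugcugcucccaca
In the minimum free energy fold, the 2 mature arms of Mir144 (bases 6 to 28 and 43 to 62) lay on either side of the terminal loop and held none of its 6 bases. The mature miR-451a (bases 17 to 38) took in all 4 bases of its terminal loop, at bases 35 to 38.

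Library totals ran from 5689143 to 8734721 counts. The 3 members held between 0.0240% of these counts, in AM132 library 1, and 0.237%, in RCD library 3. Raw counts were 1214 to 14571 for miR-451a, 119 to 1522 for miR-144-3p and 91 to 864 for miR-144-5p, so the spread between libraries was far wider than counting error. Nothing in the labels says which animal gave which numbered sample, so the p-values below speak of the spread among samples, part of which may be technical. Hepatocyte miRNAs were abundant in every library: the 7 listed ones, led by miR-122-5p, summed to 160400 CPM in RCD library 3 and to between 235300 and 457400 CPM in the other 23. RCD library 3 and AM132 library 8 stood apart from the rest in the members, and results that rest on them are given with and without them.

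miR-451a was by far the most abundant of the 3. Its lowest, median and highest values were 247, 621 and 1523 CPM in RCD, 287, 477 and 680 CPM in AM608, and 229, 468 and 1342 CPM in AM132. The 3 groups overlapped over most of their range. The ends belonged to single libraries: RCD library 3 was highest, with the next RCD library at 966 CPM, and AM132 library 8 was second, with the next AM132 library at 644 CPM. The coefficient of variation was 30.5% in AM608, 54.5% in RCD and 58.9% in AM132. Without RCD library 3 it was 37.8% in RCD, and without AM132 library 8 it was 27.5% in AM132, below that of AM608. By mean level miR-451a was 67th of the 421 tested miRNAs, and it varied 6.66-fold between the lowest and the highest library.

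miR-144-3p, the arm known to silence targets in erythroid cells, was counted far less often. Its lowest, median and highest values were 20.7, 58.2 and 159 CPM in RCD, 22.6, 41.0 and 54.7 CPM in AM608, and 22.4, 45.6 and 116 CPM in AM132. Within each group the lowest and the highest library were the same as for miR-451a. RCD library 3 lay far above the other RCD libraries, the next of which was at 66.1 CPM, and RCD library 2 was the lowest of all 24.

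miR-144-5p, the opposite arm of the same hairpin, had the narrowest spread of the 3. Its lowest, median and highest values were 30.0, 49.0 and 90.3 CPM in RCD, 20.5, 38.3 and 50.7 CPM in AM608, and 17.2, 33.8 and 61.6 CPM in AM132. RCD library 3 and AM132 library 8 were again highest in their groups, but by a smaller margin. Within groups the SD on the log2 scale was 0.50 for miR-144-5p, 0.65 for miR-144-3p and 0.66 for miR-451a, against a median of 0.37 over all tested miRNAs.

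**Figure D1:**
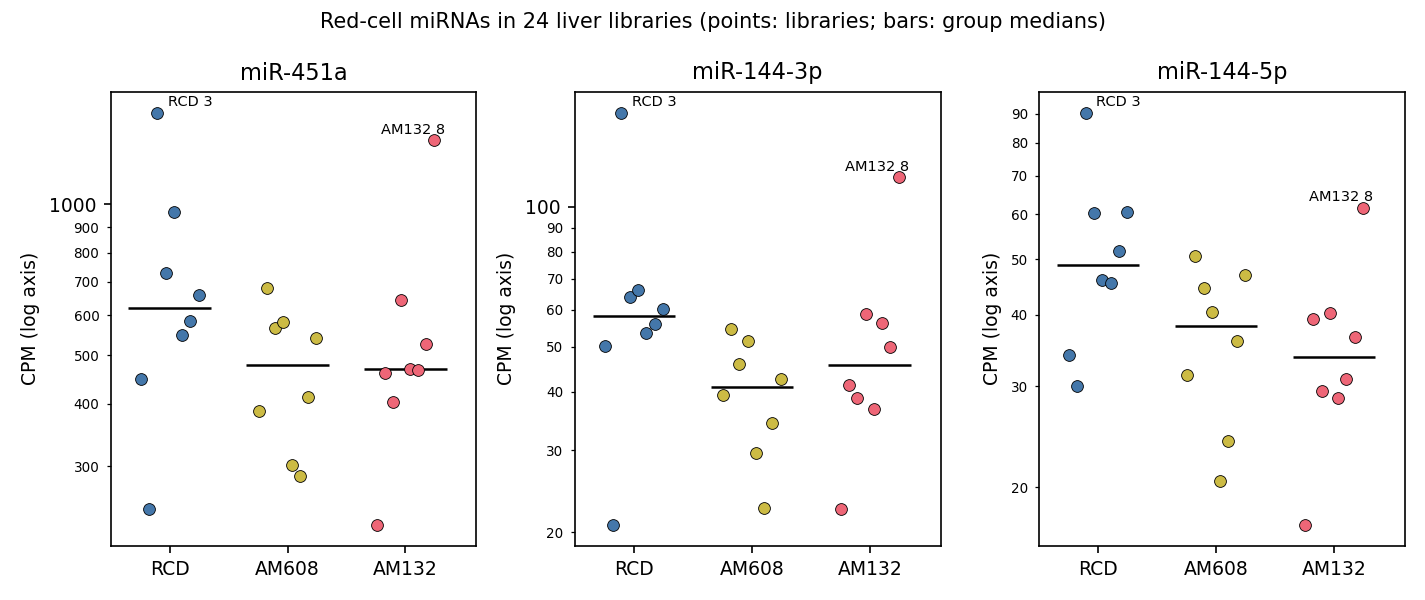
CPM of miR-451a, miR-144-3p and miR-144-5p (log axes) in each of the 24 libraries, by group, with a bar at each group's median. The groups overlap, and RCD library 3 and AM132 library 8 are the highest of their groups in each panel (1523 and 1342 CPM for miR-451a).

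Between obese mice given the oligonucleotide against miR-132 and those given the control, none of the 3 members differed by more than the spread between libraries. miR-451a averaged 567 ± 334 CPM in AM132 and 469 ± 143 CPM in AM608 (mean ± SD, n = 8 each), a log2 fold change of 0.27 with a 95% interval from −0.38 to 0.92 (edgeR adjusted p = 0.675). Of the AM132 libraries, 3 of 8 lay above the AM608 median of miR-451a. Without AM132 library 8 the log2 fold change of miR-451a was −0.0389. miR-144-3p had a log2 fold change of 0.39 (interval −0.25 to 1.04, edgeR adjusted p = 0.5), which fell to 0.12 without that library. miR-144-5p was at −0.05 (interval −0.54 to 0.43, edgeR adjusted p = 0.907). The edgeR test called 0 of 3 members here, where it called 12.4% of all tested miRNAs. At an unadjusted p under 0.05 the count was also 0 of 3, and DESeq2 and limma voom called 0 of 3.

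Between the obese control group and lean liver, all 3 members had lower means in AM608, and none passed the test. miR-144-3p showed the widest gap, at 40.1 ± 10.9 CPM in AM608 against 66.2 ± 40.1 CPM in RCD (n = 8 each). The log2 fold change was −0.73 (SE 0.313, interval −1.37 to −0.08, edgeR adjusted p = 0.0857). No AM608 library reached the RCD median of miR-144-3p, although the ranges overlapped. miR-451a, at 469 ± 143 against 713 ± 388 CPM, had a log2 fold change of −0.60 (interval −1.26 to 0.0484, edgeR adjusted p = 0.166), and miR-144-5p of −0.51 (interval −0.995 to −0.0175, edgeR adjusted p = 0.117). For both, 1 of 8 AM608 libraries lay above the RCD median. The edgeR test called 0 of 3 members at the adjusted threshold, where it called 28.7% of all tested miRNAs, and 2 of 3 had an unadjusted p under 0.05. DESeq2 and limma voom also called 0 of 3. RCD library 3 carried a good part of the gap: without it the log2 fold changes were −0.41 for miR-144-3p, −0.35 for miR-451a and −0.35 for miR-144-5p. Among the settings tried, miR-144-3p passed the threshold only without RCD library 2, the lowest RCD library (−0.85, edgeR adjusted p = 0.0286).

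Between AM132 and lean liver the means of all 3 members were again lower in the obese mice, with miR-144-5p closest to the threshold. miR-144-5p averaged 35.5 ± 12.9 CPM in AM132 and 52.3 ± 18.9 CPM in RCD (n = 8 each). The log2 fold change was −0.56 (SE 0.237, interval −1.05 to −0.0707, edgeR adjusted p = 0.0693). 3 of 8 AM132 libraries lay below every RCD library and 1 of 8 above the RCD median. The difference passed the threshold with DESeq2 (adjusted p = 0.0467), with library totals in place of TMM (edgeR adjusted p = 0.0257) and when the 2 highest libraries, AM132 library 8 and RCD library 3, were left out (edgeR adjusted p = 0.0373). It also passed without AM132 library 8 (edgeR adjusted p = 0.0207), RCD library 1 (0.0449) or RCD library 2 (0.0322) alone. miR-451a and miR-144-3p had log2 fold changes of −0.33 and −0.34 (intervals −0.98 to 0.32 and −0.98 to 0.31, edgeR adjusted p = 0.428 and 0.418). The fold change of miR-451a ranged from −0.64 without AM132 library 8 to −0.0955 without RCD library 3, and that of miR-144-3p from −0.60 to −0.0371 without the same libraries. The edgeR test called 0 of 3 members where it called 34.2% of all tested miRNAs, with 1 of 3 at an unadjusted p under 0.05. DESeq2 called 1 of 3 and limma voom 0 of 3. These 3 comparisons share their groups in pairs and are not independent of each other.

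**Figure D2:**
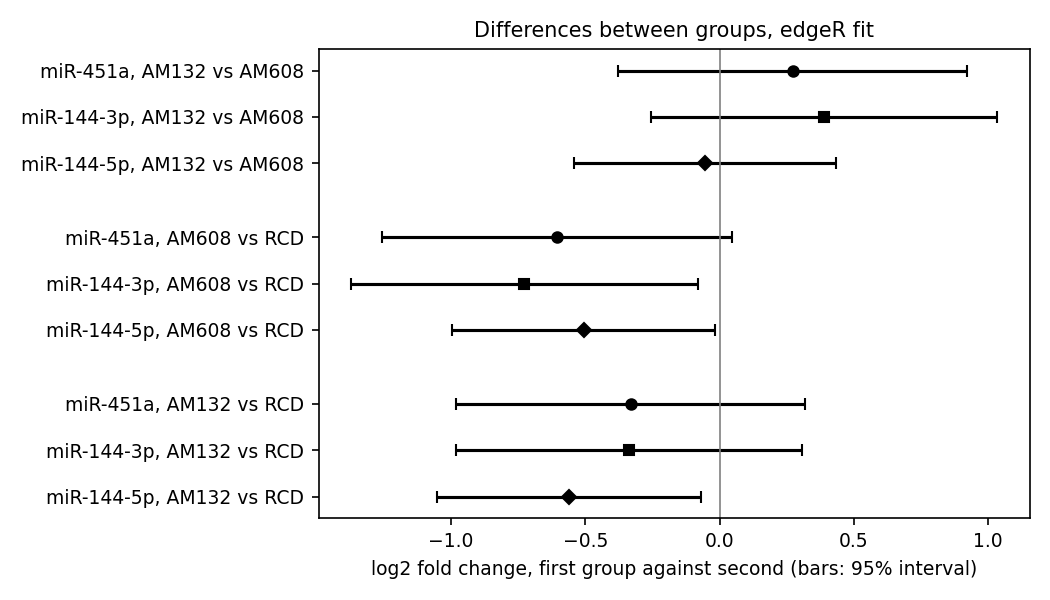
Log2 fold change of each member in each comparison, first group against second, with its 95% interval from the edgeR fit. All members have values below 0 against RCD, and the intervals of miR-144-3p (AM608 vs RCD) and of miR-144-5p (both comparisons with RCD) lie below 0, while no adjusted p is under 0.05.

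The members rose and fell together from library to library. Across all 24 libraries, log2 CPM of miR-451a and miR-144-3p had a Pearson r of 0.962 and a Spearman rho of 0.923. For miR-451a and miR-144-5p the values were 0.894 and 0.909, and for the 2 arms of miR-144 they were 0.858 and 0.837. Each of these had a permutation p of 2e-05, the smallest that 100000 resamples can give, and an adjusted p of 8e-05 over the 24 coefficients of 12 relations computed. Library scaling is shared by the members and the 2 arms share a hairpin, so part of each coefficient is common to their source. With the 2 libraries farthest from the median of miR-451a left out, which were RCD library 3 and AM132 library 8, r with miR-144-3p was still 0.934 and with miR-144-5p 0.859. For the arms, r was 0.775 after RCD library 3 and AM132 library 1, farthest in miR-144-5p, were left out.

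The relation held inside each group. For miR-451a and miR-144-3p, r was 0.969 in AM132, 0.948 in AM608 and 0.962 in RCD (n = 8 each, exact permutation p = 0.00198, 0.000248 and 4.96e-05, the last being the smallest possible). In RCD the 8 libraries stood in the same order for both miRNAs (rho = 1). For miR-451a and miR-144-5p, r was 0.953, 0.956 and 0.878 in the same groups (exact permutation p = 0.00243, 0.00104 and 0.00585). Between the arms, r was 0.928, 0.855 and 0.893 (exact permutation p = 0.00427, 0.0126 and 0.00258). All 12 relations had an adjusted p of 0.0368 or less for both coefficients. With the 2 farthest libraries of a group left out, r with miR-144-3p was 0.716 in AM132, 0.902 in AM608 and 0.963 in RCD. For miR-451a and miR-144-5p it was 0.686, 0.920 and 0.506, and for the arms 0.509, 0.684 and 0.672. The largest drops were between the arms in AM132 and between miR-451a and miR-144-5p in RCD.

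**Figure D3:**
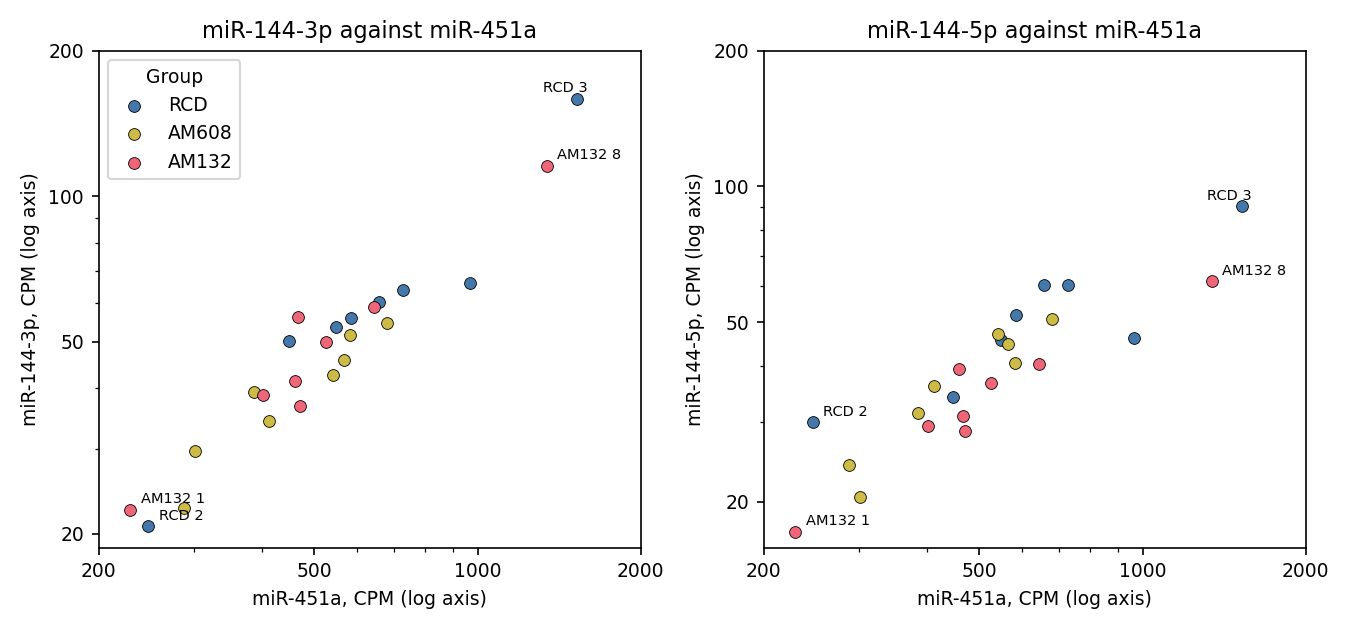
miR-144-3p (left) and miR-144-5p (right) against miR-451a in CPM, log axes, 1 point per library coloured by group. The 24 points follow 1 line for miR-144-3p (r = 0.962) and scatter more widely for miR-144-5p (r = 0.894), with RCD library 3 and AM132 library 8 at the upper end.

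Ratios between members do not depend on how libraries are scaled. miR-451a was counted 8.31 to 14.6 times as often as miR-144-3p over the 24 libraries, with medians of 10.7 in AM132, 12.2 in AM608 and 10.7 in RCD. Such a ratio of counts reflects ligation and length as well as abundance. The ratio of the 3p to the 5p arm of miR-144 varied more. Its lowest, median and highest values were 1.05, 1.34 and 1.88 in AM132, 0.906, 1.05 and 1.45 in AM608, and 0.690, 1.13 and 1.76 in RCD. Of the AM132 libraries, 7 of 8 lay above the AM608 median and 3 of 8 above its maximum.

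The 2 libraries with the most miR-451a had high arm ratios, 1.88 in AM132 library 8 (95% exact binomial interval 1.64 to 2.15) and 1.76 in RCD library 3 (1.62 to 1.92). A ratio as high, 1.81, was also found in AM132 library 6, whose miR-451a stood at 466.3 CPM. RCD library 2, second lowest of the 24 in miR-451a, had the lowest ratio, 0.690 (0.547 to 0.868). These intervals cover counting error only. The mean log2 arm ratio was higher in AM132 than in AM608 by 0.37 (unadjusted two-sided exact permutation p = 0.0137), but it did not pass after adjustment over the 9 ratio tests made (exact permutation, adjusted p = 0.123). The adjusted p was 0.0294 without AM132 library 2 and 0.028 without AM608 library 5. AM608 and RCD differed by −0.0925 (exact permutation, adjusted p = 0.769) and AM132 and RCD by 0.28 (adjusted p = 0.319). The ratios of miR-451a to either arm gave adjusted p from 0.136 to 0.989 by the same exact test. The lowest was for miR-451a to miR-144-5p, higher in AM132 than in AM608 by 0.24 on the log2 scale (unadjusted exact permutation p = 0.0303). For that ratio, 7 of 8 AM132 libraries lay above the AM608 median and 4 of 8 above its maximum. These ratios were chosen after the counts had been seen.

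**Figure D4:**
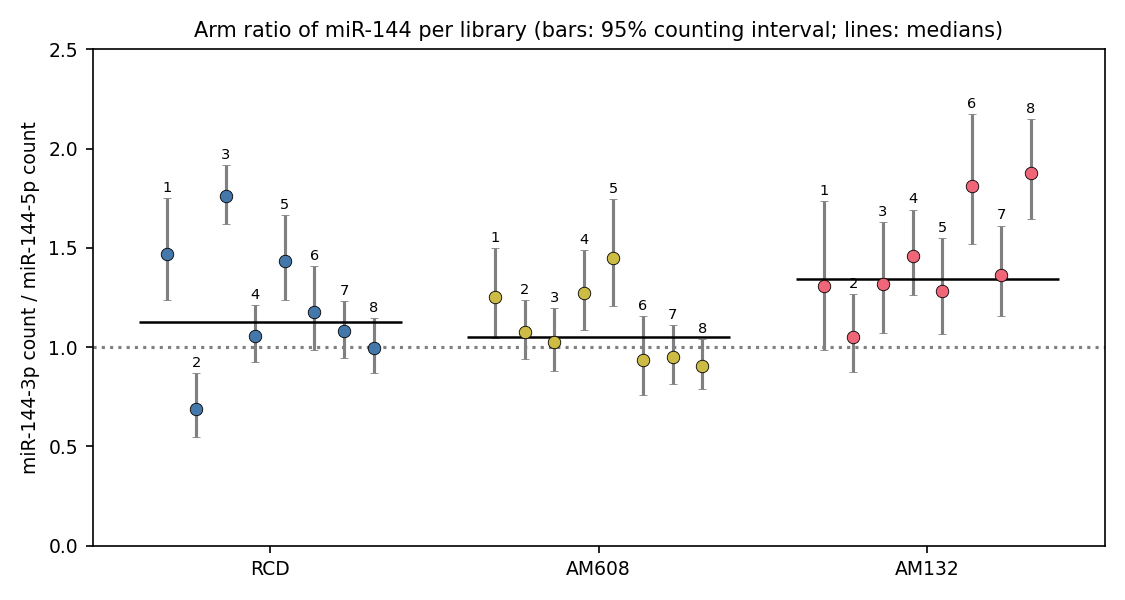
Count of miR-144-3p divided by that of miR-144-5p in each library, with its 95% counting interval, library numbers above the bars and a line at each group's median. AM132 has the highest median (1.34, against 1.05 in AM608 and 1.13 in RCD), and the groups overlap.

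Of 8 other miRNA names known from red cells, 4 were tested, and all 4 are also made by cells other than red cells. The other 4, the arms of miR-486a and miR-486b, were not analysed here. The names miR-486-5p and miR-486-3p were listed at 0 in all 24 libraries, which can come from how reads were named or assigned and says nothing of the level of miR-486, a miRNA of red cells and muscle. miR-16-5p averaged 1080 CPM in RCD and had a within-group correlation with miR-451a of 0.092 over the 24 libraries, given as a description. miR-92a-3p (r = −0.68) and miR-25-3p (r = −0.50), both from clusters active in dividing cells, ran against miR-451a, and miR-363-3p was at 0.10. Without RCD library 3 and AM132 library 8 the values were 0.45 for miR-16-5p, −0.34 for miR-92a-3p, −0.62 for miR-25-3p and −0.46 for miR-363-3p. Group by group, r of miR-92a-3p was −0.88 in AM132, −0.85 in RCD and 0.53 in AM608. That of miR-25-3p was −0.77, −0.35 and −0.052 in the same order, so AM608 did not show the inverse relation. The summed level of the 4 was the lowest of its group in both libraries rich in the members, 4619 CPM in RCD library 3 and 3633 CPM in AM132 library 8. Of the 4, miR-25-3p was lower in AM132 than in AM608 (log2 fold change −0.67, edgeR adjusted p = 1.15e-06) and than in RCD (−0.67, edgeR adjusted p = 9.27e-07), and none passed between AM608 and RCD. The median log2 fold change of the 4 was −0.23 between AM132 and AM608, −0.14 between AM608 and RCD, and −0.46 between AM132 and RCD. Over all tested miRNAs the medians were 0.0461, −0.0314 and 0.0307.

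Markers of other cell types set the 2 highest libraries apart from each other. In RCD library 3 the 5 counted leukocyte miRNAs (miR-223-3p, miR-223-5p, miR-150-5p, miR-155-5p and miR-342-3p) summed to 1149 CPM, against at most 624 CPM in the other RCD libraries and a median of 299. The spread over the RCD libraries was wide for miR-150-5p (168.9 ± 231.1 CPM, mean ± SD), miR-342-3p (129.4 ± 89.5) and miR-155-5p (68.1 ± 75.3). It was narrower for miR-223-3p (39.3 ± 16.6) and miR-223-5p (17.9 ± 6.78). These group spreads do not show which of the 5 were high in RCD library 3. The sum is therefore not read as a rise of all 5. Of the 7 neural miRNAs, 3 passed the filter on low counts (miR-9-5p, miR-128-3p and miR-129-5p). The 7 summed to 1449 CPM in RCD library 3 and to at most 523 CPM in the other RCD libraries. The 4 muscle miRNAs summed to 331 CPM, against at most 151 CPM, and the hepatocyte list was at its lowest. Of the 4 muscle miRNAs, 2 passed the filter on low counts. In RCD, miR-1a-3p stood at 75.3 ± 106.8 CPM and miR-206-3p at 3.19 ± 0.954 CPM (mean ± SD). Their r with miR-451a in RCD was 0.72 and −0.70, so the muscle list did not move as a whole. In AM132 library 8, by contrast, leukocyte miRNAs summed to 243 CPM within a group range of 198 to 424 CPM. Its neural and muscle sums, 513 and 26.1 CPM, also lay inside the ranges of AM132 (405 to 513 and 9.24 to 62.1 CPM), and its hepatocyte sum of 436600 CPM was the second highest of the group. The neural sum in AM132 was mostly miR-128-3p, which averaged 459 CPM, against 2.93 for miR-9-5p and 16.5 for miR-129-5p. The vascular wall list (miR-126a-3p, miR-126a-5p, miR-143-3p and miR-145a-5p) was at its highest in both, 64800 CPM in RCD library 3 and 67130 CPM in AM132 library 8, against at most 58260 CPM in any other library. Most of this sum was miR-126a-3p (45800 CPM on average in AM132, with miR-143-3p next at 8650). Within AM132, r with miR-451a was 0.78 for miR-126a-3p and 0.44 for miR-145a-5p. It was −0.15 for miR-126a-5p and −0.30 for miR-143-3p, so the list did not move as a whole there. The names miR-142-3p and miR-142-5p, defining miRNAs of leukocytes, were listed at 0 in all 24 libraries and miR-142a was not analysed here, so the level of miR-142 is not known from these counts. The part of these other cell types in the members' levels was not tested.

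**Figure D5:**
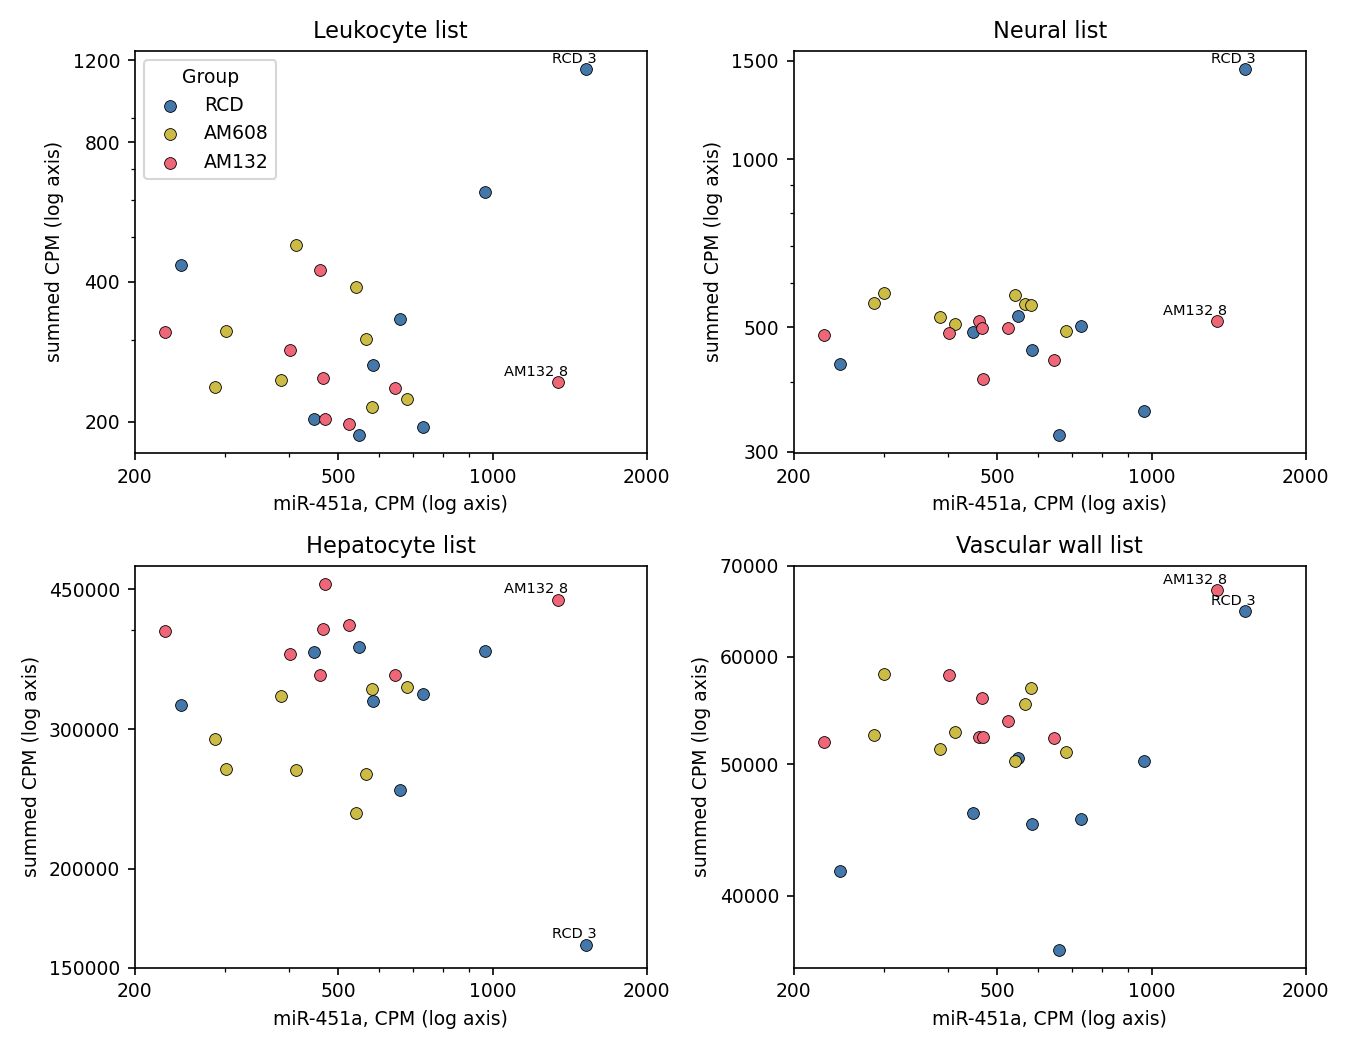
Summed CPM of the leukocyte, neural, hepatocyte and vascular wall lists against CPM of miR-451a, log axes, 1 point per library coloured by group. RCD library 3 stands apart from the other RCD libraries in all 4 panels, whereas AM132 library 8, with nearly as much miR-451a, lies among its group in the leukocyte, neural and hepatocyte panels.

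Few miRNAs outside the locus tracked the members closely. By the Pearson correlation of group-centred log2 CPM with miR-451a over the 24 libraries, which is a description, the nearest of 418 others was miR-378a-5p, from an intron of the mitochondrial regulator gene Ppargc1b, at 0.79. The next were miR-32-5p (0.68), miR-140-5p (0.66), the muscle miRNA miR-1a-3p (0.64), miR-338-3p (0.63) and the neural miRNA miR-9-5p (0.63). They were followed by miR-3084-3p (0.62), miR-378c (0.60), miR-32-3p (0.60) and miR-149-5p (0.58). None came near the 0.961 of miR-144-3p computed the same way. With RCD library 3 and AM132 library 8 left out, 4 of the 10 were again among the nearest 10, and miR-378a-5p again led at 0.72. Reference miRNAs of other cells stood lower over all 24 libraries: miR-223-3p of neutrophils was at 0.086, miR-122-5p of hepatocytes at −0.29, miR-101a-3p at 0.0083 and miR-101b-3p at −0.20. Without those 2 libraries they were at 0.0504, −0.0598, 0.49 and 0.33.

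Fitted as a covariate beside group, the level of miR-451a was associated with 39 of the 418 other miRNAs, 9.33%, of which 26 rose and 13 fell with it (edgeR adjusted p under the 0.05 threshold). The rises with the smallest p were miR-9-5p (1.97 log2 units per log2 unit of miR-451a, SE 0.388, edgeR adjusted p = 0.00813), miR-370-3p (2.11), miR-338-3p (0.83), miR-378a-5p (0.21, SE 0.0461, edgeR adjusted p = 0.0123) and miR-433-3p (1.85). The falls were let-7d-3p (−0.22), miR-92a-3p (−0.26), miR-455-3p (−0.78, SE 0.206, edgeR adjusted p = 0.0271), let-7c-1-3p (−0.37) and miR-199b-3p (−0.34). Inside AM608, r with miR-451a was −0.70 for let-7c-1-3p and −0.55 for miR-199b-3p. It was −0.00059 for let-7d-3p, −0.057 for miR-455-3p and 0.53 for miR-92a-3p, so those 3 falls were not seen in AM608. Among the rises, r was −0.13 in AM132, 0.88 in AM608 and 0.68 in RCD for miR-370-3p. In the same order it was 0.24, 0.051 and 0.63 for miR-433-3p and 0.23, 0.54 and 0.85 for miR-9-5p. For miR-338-3p it was 0.81, 0.65 and 0.70, and for miR-378a-5p 0.82, 0.50 and 0.89. In RCD, miR-370-3p and miR-433-3p stood at 25.1 ± 64.3 and 19.3 ± 47.5 CPM (mean ± SD). Of the lists, 2 of 3 tested neural miRNAs, 1 of 2 muscle and 1 of 4 vascular wall miRNAs rose, 1 of 4 red-cell miRNAs fell, and 0 of 5 leukocyte and 0 of 7 hepatocyte miRNAs passed. The 2 neural rises were miR-9-5p and miR-129-5p, and r of miR-129-5p with miR-451a was 0.20 in AM132, −0.58 in AM608 and 0.70 in RCD. The 39 calls rested on the highest libraries. Without RCD library 3, 9 were left, of which 6 rose and 3 fell, and 6 of the 9 were among the 39. Without AM132 library 8, 25 were left, of which 22 rose and 3 fell. Without both, 0 were left, and 65 had an unadjusted edgeR p under 0.05. With library totals in place of TMM the split was 53 that rose and 1 that fell.

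With the level of miR-451a held constant in this way, AM132 against AM608 called 54 of 418 miRNAs (12.9%), of which 50 were among the 52 called without it. AM608 against RCD called 103 (24.6%), and 96 of these were among the 121 called without it. AM132 against RCD called 139 (33.3%), of which 124 were also called without it. Between AM608 and RCD, 25 calls were lost and 7 gained. The numbers were 2 and 4 between AM132 and AM608, and 20 and 15 between AM132 and RCD.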

How the data were processed

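Small RNA of 24 livers was sequenced from NEBNext small RNA libraries on an Illumina NextSeq instrument, per the labels' protocols. The authors deposited a table of raw counts per mature miRNA name. FastQC is named in the submitters' processing notes, and no label or header used here names an aligner, a counting rule or a genome build. Groups were taken from the labels. The members and marker lists were chosen with earlier results of these data known.

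Counts were tested in R 4.3.3 with edgeR 4.0.16 (TMM, filterByExpr, robust quasi-likelihood F test, all 24 libraries in 1 fit with group as the only factor) with Benjamini-Hochberg adjustment over 421 tested miRNAs and a threshold of 0.05. A further fit added the log2 CPM of miR-451a (prior count 2) to group and tested the 418 other miRNAs, and covariate and counts there share library scaling. Named miRNAs were the 5 rises and 5 falls with the smallest p in that fit, the 10 most like miR-451a, the marker lists and 5 reference miRNAs, of which miR-142a-3p was not analysed here. Ratios and correlations used exact permutation of 12870 assignments or 40320 pairings, or 100000 resamples for 24 libraries (scipy 1.17.1). DESeq2 1.42.0, limma 3.58.1 (voom), other scalings and filters, a block on replicate number and leaving out libraries were alternatives. Hairpins were folded with RNAfold 2.7.2, from RefSeq sequences. With 91 or more counts per member and library, counting error was small beside the spread between libraries. A second table, of tRNA fragments, was not used here.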

Additional observations from a re-analysis of the deposited data

Results flagged for a closer look

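Of 15 sets of 8 libraries examined (5 quantities of the members in 3 groups), 3 values lay farther from the rest than Dixon's 95% limit, and chance gives about 1 in 20. miR-451a stood at 1342 CPM in AM132 library 8, with the next AM132 library at 644 CPM. miR-144-3p stood at 115.6 CPM in the same library, against 58.9 CPM in the next. miR-144-3p stood at 159.1 CPM in RCD library 3, against 66.1 CPM in the next RCD library. The 3 values come from 2 libraries and are not independent. Dixon's limit was applied to CPM and ratios without log transformation, and the flags hold for that scale only.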

How the results depend on the processing

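The 9 differences between groups were recomputed under 10 other settings and with each of the 24 libraries left out. miR-144-5p between AM132 and RCD, at −0.56 and not called, passed with library totals (−0.80), a mean CPM of at least 10 (−0.65), DESeq2 (−0.60), the replicate block (−0.58, edgeR adjusted p = 0.0322) and with AM132 library 8 and RCD library 3 both left out (−0.595). With single libraries left out it ran from −0.71 to −0.43 and passed in 3 of 24 fits. miR-144-3p between AM608 and RCD ran from −0.85 to −0.41. miR-451a between AM132 and AM608 was −0.0664 without RCD library 3 and AM132 library 8, and ran from −0.0389 to 0.38 with single libraries left out. miR-144-5p between AM132 and AM608 ran from −0.21 to 0.0409 and was above 0 only without AM132 library 1. The number of miRNAs that moved with miR-451a, 39, was 105 with no filter on low counts, 23 with the replicate block, 0 without RCD library 3 and AM132 library 8, and 9 to 55 with single libraries left out. The log2 arm ratio difference between AM132 and AM608 ran from 0.31 to 0.43, passing without AM132 library 2 (0.4284) or AM608 library 5 (0.4257), alternatives chosen after seeing the data. The cause of these changes was not tested. The labels do not say whether replicate numbers pair the samples. Same-numbered libraries correlated above 0.1 in 2, 5 and 3 of 8 pairs (AM132 with AM608, AM608 with RCD, AM132 with RCD). They correlated best with their own number in 1, 1 and 2 of 8. Mean correlations were −0.0030, 0.12 and 0.022 for same-numbered libraries and 0.00066, −0.019 and −0.00099 for other numbers. Such correlations cannot decide whether numbers share a batch or other source. The lowest count of any member in a library was 91.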
